A study of Mus musculus with 8 samples.

Results

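The genes described here are 40 genes of autophagy, mitophagy and the lysosome chosen by symbol, among 45706 Ensembl identifiers in the deposited count table. They are the transcription factors of the TFEB family, the machinery that builds autophagosomes, the LC3 and GABARAP proteins, the receptors for cargo and for mitochondria, and membrane proteins, proton pump subunits and hydrolases of the lysosome. Each symbol matched 1 Ensembl identifier in the GENCODE M21 annotation of GRCm38, and all 40 passed edgeR's filter on low counts together with 15491 genes in all.

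Autophagy encloses cytoplasm, lipid droplets or worn mitochondria in a double membrane, the autophagosome, which then fuses with the lysosome, where acid hydrolases degrade the content. TFEB and TFE3 are transcription factors that switch on many of these genes when nutrients are scarce. In hepatocytes the process supplies amino acids and fatty acids during fasting, and the fatty acid-activated receptor PPARα is known to promote it.

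RNA was sequenced from 8 livers of male mice, whose strain is given as C56B6/J in the sample labels. At 6 weeks of age, 4 weeks before the diet, the mice were given an AAV2/8 vector that expresses GFP and a miR-30-based shRNA (mirE/shRNA) from the chicken β-actin promoter, which is not restricted to hepatocytes. In 4 mice the shRNA was directed against *Srsf10*, which encodes a splicing factor (*Srsf10-kd*), and in 4 it was a control (*Ctrl*, listed as WT in the labels). Every mouse, *Ctrl* included, was then fed a high-fat diet (60% of calories from fat) for 12 weeks, so a chow-fed group is not part of the comparison. The comparison asks which genes differ between the livers when SRSF10 is targeted in diet-induced fatty liver.

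Between 50456404 and 59697241 reads were counted on genes in each liver. The 10 hepatocyte markers examined were present in every liver and together held 85960 to 121200 CPM (counts scaled to a fixed total per library, here with TMM factors). *Srsf10* itself was at 34.3, 34.0, 41.0 and 36.5 CPM in *Srsf10-kd* 1 to 4 and at 31.6, 33.7, 35.3 and 30.9 CPM in *Ctrl* 1 to 4. Its RNA was thus not lower in the targeted group (log2 fold change 0.15, edgeR adjusted p = 0.378), and the groups are named here by their labels. *Ppara*, which encodes PPARα, was at 77.8 to 88.4 CPM in the *Srsf10-kd* livers and at 168 to 234 CPM in the *Ctrl* livers (log2 fold change -1.24, edgeR adjusted p = 0.0166). *Srsf10-kd* 3 stood apart from the other 7 livers on the first principal component, at -67.4 against -11.5 to 41.8, and *Ctrl* 3 lay nearer to the *Srsf10-kd* livers (2.91) than did the other *Ctrl* livers (20.2 to 41.8).

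No autophagy or lysosome gene among the 40 was called at a threshold of 0.05 on the edgeR p adjusted over all genes, beside 0.0710% of the 15491 genes. At an unadjusted p under 0.05 the count was 4 of 40 genes (10%), namely *Atg14*, *Uvrag*, *Gabarapl1* and *Nbr1*, while 21.8% of all genes reached it. All 4 had lower means in the *Srsf10-kd* livers, against 10.6% of all genes at that p on the lower side, and 0 of 40 had a higher mean against 11.2% of all genes. The median log2 fold change of the 40 genes was -0.04, with 16 above and 24 below 0, beside a median of 0.01 over all genes tested. Other tools gave few calls as well: DESeq2 called 0 of the 40 genes, beside 5.27% of those to which it gave an adjusted p. Limma-voom, weighting each library by its quality, called *Atg14* and *Uvrag*, beside 11.7% of all genes.

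The groups of livers did not overlap in 7 of the 40 genes (17.5%), against 14.3% of all genes. *Becn1* was higher in every *Srsf10-kd* liver than in any *Ctrl* liver (6.73% of all genes were), and *Atg14*, *Uvrag*, *Wipi2*, *Gabarapl1*, *Nbr1* and *Atp6v1a* were lower in every one (7.53% of all genes were). The same 7 genes did not overlap without *Srsf10-kd* 3. Without *Ctrl* 3 the number was 15 of 40 genes, beside 31.9% of all genes, and without both livers it was 17, beside 34.9%. With both left out, which was decided on only once the values were known, edgeR called *Atg9a* (log2 fold change -0.79, edgeR adjusted p = 0.0216) and *Wipi1* (-0.35, edgeR adjusted p = 0.0380). In that fit 1342 of the 15560 genes tested were called, beside these 2 of the 40.

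The spread of the 40 genes between livers was small at the median, but not for every gene. *Atg9a* ran from 2.63 to 27.5 CPM over the 8 livers, and *Ctsl* from 353 to 704 CPM. The median within-group SD of log2 CPM over the 40 genes was 0.167 in the *Srsf10-kd* group and 0.142 in the *Ctrl* group. Over all genes, many of which have fewer counts, it was 0.244 and 0.221. For 28 of the 40 genes (70%) the 95% interval of the log2 fold change lay inside a 1.5-fold change in either direction (0.585 on the log2 scale), as it did for 41.2% of all genes. The 12 others, whose intervals reached past 1.5-fold, were *Ulk1*, *Uvrag*, *Atg9a*, *Map1lc3a*, *Gabarap*, *Gabarapl1*, *Gabarapl2*, *Nbr1*, *Bnip3*, *Ctsl*, *Gaa* and *Naglu*. Summed over the 40 genes, the level was 5822 to 6275 CPM in the *Srsf10-kd* livers and 5771 to 6334 CPM in the *Ctrl* livers, so the totals of both groups overlapped.

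**Figure D1:**
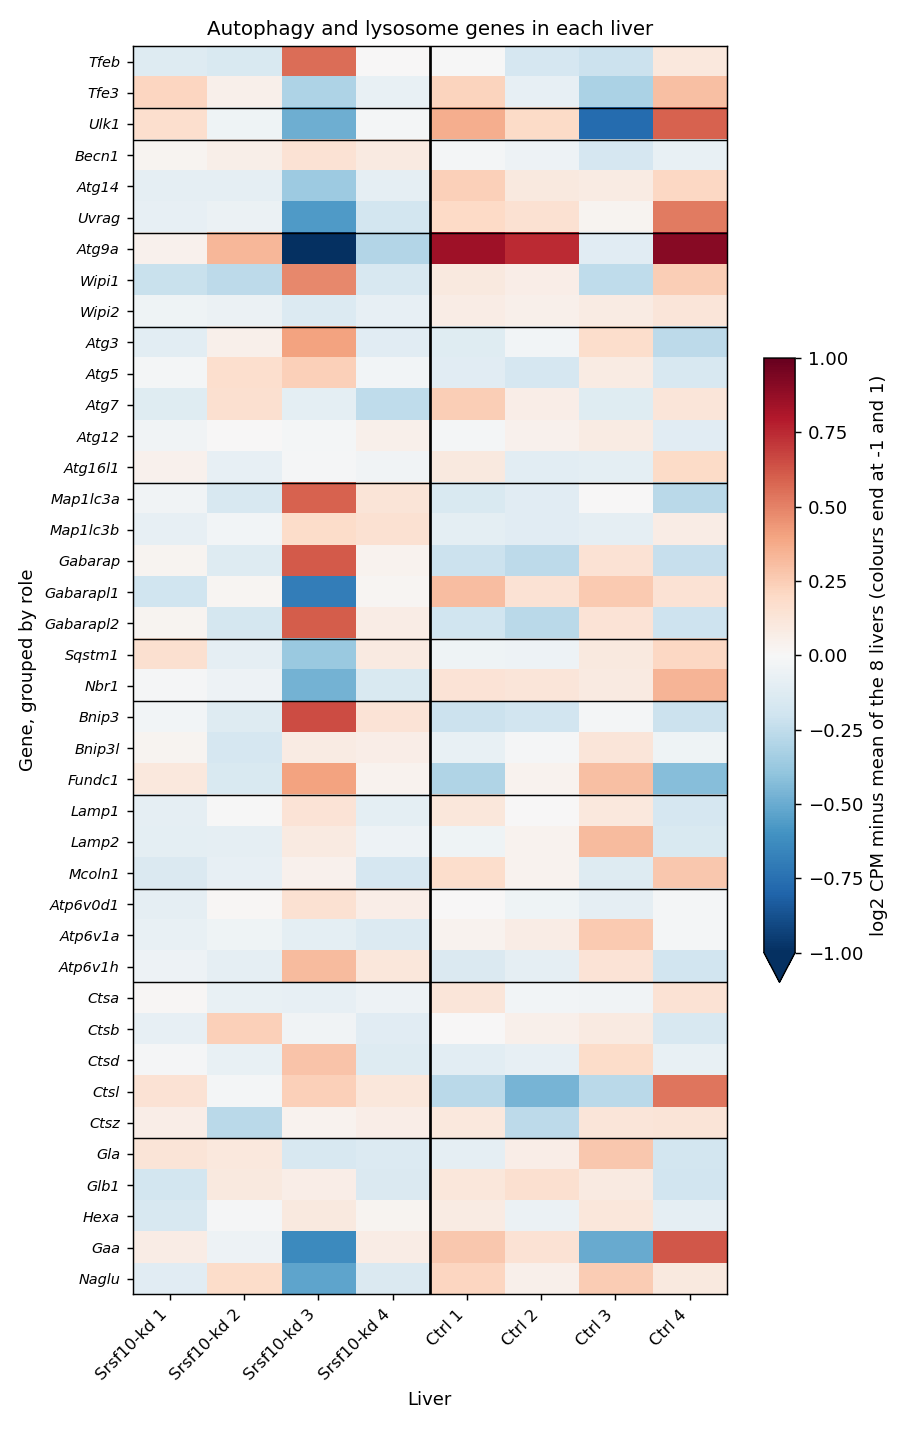
Each square is the log2 CPM of 1 gene (rows, grouped by role) in 1 liver (columns) minus the mean of the 8 livers, with colours ending at -1 and 1. *Srsf10-kd* 3 holds the highest value of 15 genes and the lowest of 10, and *Ctrl* 4 the highest of 13 and the lowest of 11.

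Single livers carried most of the extremes. *Srsf10-kd* 3 had the highest value of 15 of the 40 genes and the lowest of 10, and over all genes it held 29.8% of the highest and 26.9% of the lowest values. *Ctrl* 4 had the highest value of 13 genes and the lowest of 11, beside 21.2% and 20.04% over all genes. The median deviation of the 40 genes from their means over the 8 livers ran from -0.05 in *Srsf10-kd* 2 to 0.085 in *Ctrl* 3, so no liver had the whole group shifted by much.

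The levels of the 40 genes covered a wide range when compared per length, as CPM per kb of the longest coding transcript. That length was 6168 bases for *Ctsl* and 4365 for *Becn1*. Which transcripts these livers use was not tested, and values per kb or corrected for length depend on it. *Lamp1* and *Lamp2*, which encode the main glycoproteins of the lysosomal membrane, led at 285 and 236 CPM per kb, above 98.0% and 97.8% of the genes tested. *Gabarapl1* (202), *Bnip3* (181), *Sqstm1* (178), *Ctsd* (169) and *Gabarap* (158 CPM per kb) followed, and the ranges of neighbours in this order overlapped between livers. *Gla*, which encodes α-galactosidase A, was the lowest at 1.997 CPM per kb, with *Tfeb* and *Glb1* next at 3.87 CPM per kb each. The 5 cathepsin genes were all among the 17 highest of the 40, while both transcription factors were among the 9 lowest.

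*Tfeb* and *Tfe3* encode basic helix-loop-helix factors that bind the CLEAR element, an extended E-box found in front of many lysosomal genes. *Tfeb* was at 8.16, 8.05, 13.2 and 8.96 CPM in *Srsf10-kd* 1 to 4 and at 8.92, 7.95, 7.72 and 9.62 CPM in *Ctrl* 1 to 4. *Srsf10-kd* 3 alone was above the *Ctrl* livers, and the log2 fold change of 0.16 (95% interval -0.22 to 0.55, edgeR adjusted p = 0.567) became -0.03 without it. *Tfe3* was at 17.9 to 25.7 CPM and at 17.8 to 27.3 CPM, overlapping over almost the whole range. The activity of both factors depends mainly on their move into the nucleus, which RNA levels do not show.

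The core of the CLEAR element, TCACGTGA, reads the same on both strands and holds the shorter E-box CACGTG. RefSeq promoter windows of GRCm38.p6, from 250 bases before to 50 after each start, were matched by symbol for 33 of the 40 genes. The core occurred in 7 of these 33 (21.2%) and in 1.125% of 27025 genes with such a window. CACGTG occurred in 16 of the 33 (48.5%) and in 8.09% of all. The element is known from lysosomal genes and the list was chosen to hold such genes, so the higher share follows from that choice. The 27025 genes include those not expressed in liver. The windows not matched are those of *Becn1*, *Atg12*, *Atg16l1*, *Map1lc3a*, *Bnip3l*, *Atp6v1h* and *Ctsb*. The 7 genes with the core are shown because they are the members with the full palindrome in their window. For *Ctsa* and *Gla*, which have 2 copies each, the copy nearest to the start is shown. Sequences are 30 bases, 5′ to 3′ on the strand of the gene, with the core in capitals.
*Atg3* (chr16:45158746-45158775, forward strand): ggagagtcgagTCACGTGAggccttaggtg
*Atp6v0d1* (chr8:105566050-105566079, reverse strand): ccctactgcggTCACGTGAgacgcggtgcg
*Atp6v1a* (chr16:44139373-44139402, reverse strand): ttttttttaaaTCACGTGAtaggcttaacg
*Ctsa* (chr2:164833766-164833795, forward strand): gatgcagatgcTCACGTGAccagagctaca
*Ctsd* (chr7:142387908-142387937, reverse strand): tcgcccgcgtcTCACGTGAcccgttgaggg
*Gla* (chrX:134601182-134601211, reverse strand): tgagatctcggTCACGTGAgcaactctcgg
*Mcoln1* (chr8:3500462-3500491, forward strand): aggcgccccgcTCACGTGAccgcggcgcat

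By the RefSeq starts, the core began 4 bases before the start of *Atp6v0d1*, 46 before that of *Mcoln1*, 72 before *Atg3*, 99 before *Ctsd*, 132 before *Atp6v1a* and 195 before *Gla*, and 5 bases into the transcript of *Ctsa*. Starts in GENCODE M21 can differ: its span of *Mcoln1* begins at chr8:3500457 and that of *Ctsa* at chr2:164832873, ahead of the core. On the reverse strand, those of *Ctsd* and *Atp6v1a* begin at chr7:142388038 and chr16:44139705, also ahead of the core. Of the 7 genes with the core 3 had log2 fold changes above 0 and 4 below, and 0 had an unadjusted p under 0.05. The values ran from -0.18 (*Atp6v1a*) to 0.13 (*Atg3*) with a median of -0.03. A match of letters shows neither binding nor use of the site in these livers.

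*Ulk1* encodes the kinase that starts autophagosome formation. It was at 68.8, 59.3, 43.6 and 60.4 CPM in *Srsf10-kd* 1 to 4 and at 78.7, 69.6, 35.8 and 91.7 CPM in *Ctrl* 1 to 4. *Ctrl* 3 was the lowest of all 8 livers and the other 3 *Ctrl* livers were the highest, *Ctrl* 2 by little over *Srsf10-kd* 1, and the log2 fold change was -0.25 (95% interval -0.82 to 0.32, edgeR adjusted p = 0.559). The value turned on single livers: it was -0.465 without *Ctrl* 3 (edgeR adjusted p = 0.129), -0.13 without *Srsf10-kd* 3 and -0.08 without *Ctrl* 4, and -0.05 after correction for transcript length.

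The class III PI3-kinase complex makes the lipid PI3P that marks the growing membrane. *Becn1* encodes its scaffold beclin 1, *Atg14* the subunit that directs it to autophagosome formation, and *Uvrag* an alternative subunit used in endosomal and later steps. The groups did not overlap for any of the 3 genes, in opposite directions for *Becn1* and for the other two.

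*Atg14* (chr14:47540893-47570649) was at 19.5, 19.5, 16.2 and 19.6 CPM in *Srsf10-kd* 1 to 4 and at 24.6, 22.2, 22 and 24.0 CPM in *Ctrl* 1 to 4. Every *Srsf10-kd* liver was below every *Ctrl* liver, and *Srsf10-kd* 3 was lowest. The means were 18.7 ± 1.67 CPM and 23.2 ± 1.27 CPM (SD, n = 4 each), a log2 fold change of -0.31 (standard error 0.10, 95% interval -0.54 to -0.09, edgeR adjusted p = 0.152, two-sided exact permutation p = 0.0286, the smallest that 4 against 4 allow). Every gene whose groups do not overlap has this permutation p, so it restates the separation and adds nothing to it. The log2 fold change kept its direction in all 18 alternative fits, from -0.34 to -0.25 with 1 liver left out. Leaving out livers could hardly reverse it, as the groups do not overlap, and *Ctsa* and *Glb1* kept theirs in all 18 as well. Limma-voom gave *Atg14* an adjusted p of 0.0466.

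*Uvrag* (chr7:98885021-99141141) was at 23.5, 23.9, 16.8 and 21.95 CPM in *Srsf10-kd* 1 to 4 and at 28.7, 27.7, 25.4 and 35.9 CPM in *Ctrl* 1 to 4. Again no *Srsf10-kd* liver reached the lowest *Ctrl* liver. The log2 fold change was -0.45 (standard error 0.15, 95% interval -0.78 to -0.12, edgeR adjusted p = 0.153, two-sided exact permutation p = 0.0286), with a limma-voom adjusted p of 0.0453. Among its exon bases 17.6% overlap Gm45187, and reads there cannot be assigned with certainty because the strand column used for counting is not named.

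*Becn1* (chr11:101285952-101302286) was at 68.4, 69.9, 74.2 and 71.2 CPM in *Srsf10-kd* 1 to 4 and at 66.2, 64.6, 59.6 and 63.6 CPM in *Ctrl* 1 to 4. The difference was small, 70.9 ± 2.44 against 63.5 ± 2.79 CPM (SD, n = 4 each), with a log2 fold change of 0.16 (95% interval -0.04 to 0.36, edgeR adjusted p = 0.300, two-sided exact permutation p = 0.0286). Exons of *Cntd1* cover 43.9% of its exon bases, so its count is uncertain.

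**Figure D2:**
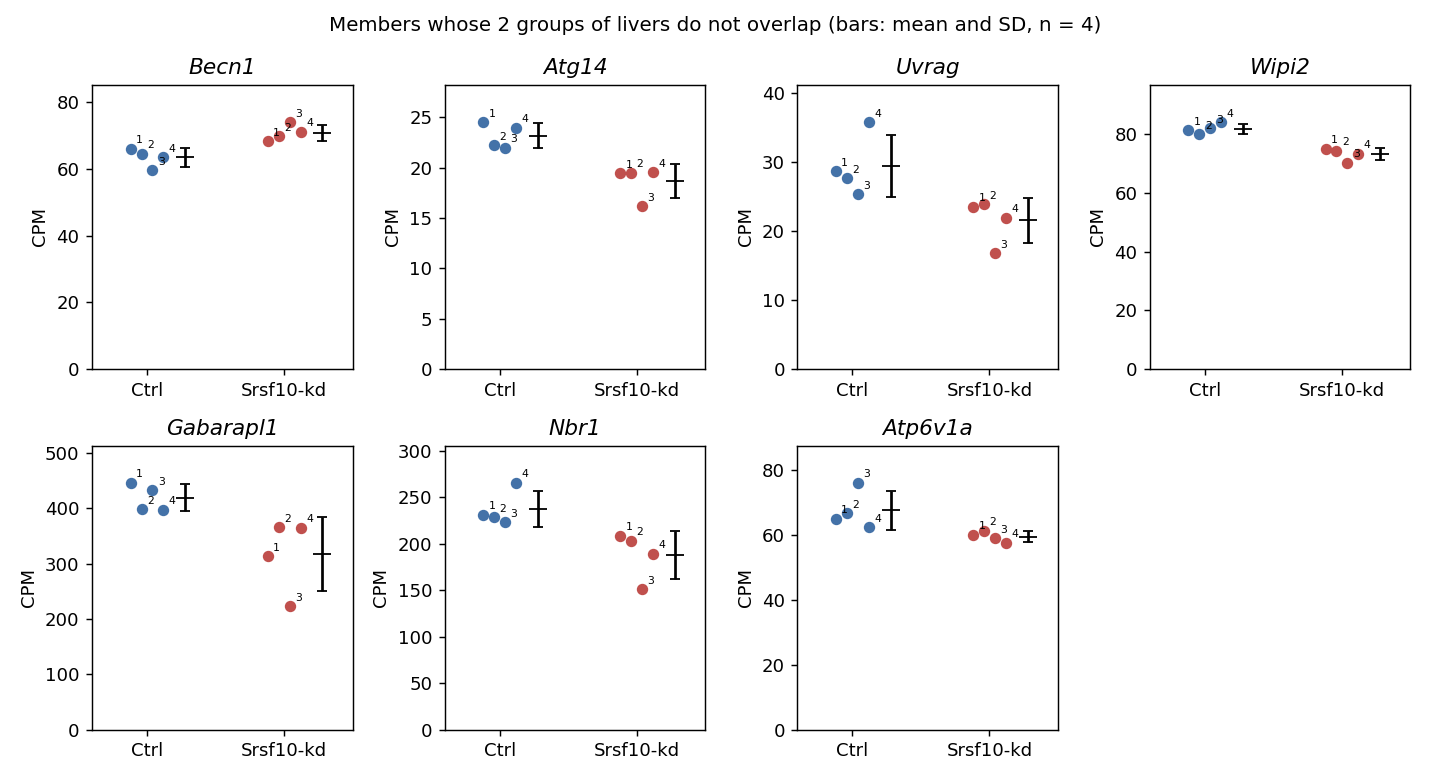
CPM of the 7 genes whose groups do not overlap, 1 point per liver (number beside it) on axes that start at 0, with the mean and SD of the 4 livers as bars. *Becn1* is higher in all 4 *Srsf10-kd* livers, the other 6 genes are lower, and *Srsf10-kd* 3 is the lowest point of *Atg14*, *Uvrag*, *Wipi2*, *Gabarapl1* and *Nbr1*.

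ATG9A carries lipid to the forming membrane, and WIPI1 and WIPI2 read PI3P there. *Atg9a* (chr1:75180860-75192196) was at 15.1, 18.5, 2.63 and 12.0 CPM in *Srsf10-kd* 1 to 4 and at 26.4, 24.5, 13.6 and 27.5 CPM in *Ctrl* 1 to 4. It had the lowest log2 fold change of the 40 genes, -0.93 (95% interval -1.97 to 0.10, edgeR adjusted p = 0.262), but *Ctrl* 3 lay inside the range of the *Srsf10-kd* livers. Without *Srsf10-kd* 3 the value was -0.60 (edgeR adjusted p = 0.262). Its count is uncertain, as 32.6% of its exon bases overlap *Ankzf1* or Gm29253 and 28.8% of the 75-base stretches of its transcripts occur in transcripts of other genes.

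*Wipi2* was at 75, 74.3, 70.2 and 73.3 CPM in *Srsf10-kd* 1 to 4 and at 81.4, 80.0, 82.0 and 84.1 CPM in *Ctrl* 1 to 4, a small separation with no overlap (log2 fold change -0.16, edgeR adjusted p = 0.282). *Wipi1* was at 13.6 to 14.5 CPM in 3 *Srsf10-kd* livers and at 22.7 CPM in *Srsf10-kd* 3, around the 13.6 to 19.3 CPM of the *Ctrl* livers. Its log2 fold change of -0.06 became -0.26 without *Srsf10-kd* 3 (edgeR adjusted p = 0.322).

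The conjugation enzymes attach ATG12 to ATG5 and LC3-type proteins to lipid. ATG7 activates both, ATG3 transfers LC3, and the ATG12-ATG5-ATG16L1 complex sets where this happens. All 5 genes overlapped between groups, with log2 fold changes from -0.16 (*Atg7*) to 0.18 (*Atg5*). *Atg5* was at 60.3, 68.9, 72.0 and 60.2 CPM in *Srsf10-kd* 1 to 4 and at 56.6, 54.4, 65.0 and 54.7 CPM in *Ctrl* 1 to 4, where *Ctrl* 3 alone exceeded the lower *Srsf10-kd* livers (edgeR adjusted p = 0.329). *Atg12* was even between groups at 38.1 ± 0.949 and 38.2 ± 2.22 CPM (SD, n = 4 each), with a 95% interval of the log2 fold change from -0.20 to 0.19. *Atg16l1* was at 36.4 to 44.8 CPM over all 8 livers.

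The LC3 and GABARAP proteins are small ubiquitin-like proteins which, once attached to lipid, coat the autophagosome and recruit cargo receptors. *Gabarapl1* (chr6:129533160-129542346) was at 313, 366, 223 and 365 CPM in *Srsf10-kd* 1 to 4 and at 446, 399, 433 and 397 CPM in *Ctrl* 1 to 4. No *Srsf10-kd* liver reached the *Ctrl* livers, and *Srsf10-kd* 3 was far below the rest. The means were 317 ± 66.9 and 419 ± 24.5 CPM (SD, n = 4 each), a log2 fold change of -0.40 (standard error 0.16, 95% interval -0.76 to -0.05, edgeR adjusted p = 0.195, two-sided exact permutation p = 0.0286). Without *Srsf10-kd* 3 it was -0.27, more than 1.5 times smaller (edgeR adjusted p = 0.244). It kept its direction in all 18 alternative fits, which leaving out livers could hardly reverse as the groups do not overlap. A noncoding gene, 1700101I11Rik, overlaps 28.3% of its exon bases.

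The 4 other genes of this family had log2 fold changes above 0 and overlapping groups. *Gabarap* was at 191 to 214 CPM in 3 *Srsf10-kd* livers and 320 CPM in *Srsf10-kd* 3, against 175 to 180 CPM in 3 *Ctrl* livers and 231 CPM in *Ctrl* 3 (log2 fold change 0.30, edgeR adjusted p = 0.322). *Gabarapl2* and *Map1lc3a*, both at 0.29, and *Map1lc3b*, at 0.12, were likewise highest in *Srsf10-kd* 3. Without *Srsf10-kd* 3 these values were 0.11 for *Gabarap*, *Gabarapl2* and *Map1lc3a* alike, and 0.075 for *Map1lc3b*. Of the 75-base stretches of *Gabarapl2* transcripts 9.53% occur in other transcripts, and 4.07% of those of *Map1lc3b*.

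Per kb of transcript, *Gabarapl1* made up 38.5%, 44.3%, 23.4% and 40.8% of the summed level of the 5 family members in *Srsf10-kd* 1 to 4 and 50.2%, 47.9%, 44.9% and 47.3% in *Ctrl* 1 to 4. Its share was lower in every *Srsf10-kd* liver, by little for *Srsf10-kd* 2 against *Ctrl* 3, and *Gabarap* held 31.2% to 45.1% and 27.3% to 32.3% in the 2 groups. This share was computed after the values were seen and carries no test.

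SQSTM1 (p62) and NBR1 bind ubiquitin-tagged cargo on one side and LC3-type proteins on the other. *Nbr1* (chr11:101552149-101581951) was at 209, 203, 151 and 189 CPM in *Srsf10-kd* 1 to 4 and at 231, 228, 223 and 266 CPM in *Ctrl* 1 to 4. All *Srsf10-kd* livers lay below all *Ctrl* livers, with *Srsf10-kd* 3 lowest and *Ctrl* 4 highest. The log2 fold change was -0.335 (standard error 0.13, 95% interval -0.62 to -0.05, edgeR adjusted p = 0.184, two-sided exact permutation p = 0.0286), and no exon base or 75-base stretch of the gene is shared. *Sqstm1* was at 366 to 530 CPM and at 456 to 546 CPM, with a log2 fold change of -0.09 (95% interval -0.40 to 0.22) that was 0.008 without *Srsf10-kd* 3.

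The mitophagy receptors BNIP3, NIX (encoded by *Bnip3l*) and FUNDC1 sit in the outer mitochondrial membrane and bind LC3-type proteins directly. *Bnip3* was at 307, 285, 489 and 344 CPM in *Srsf10-kd* 1 to 4 and at 269, 273, 309 and 269 CPM in *Ctrl* 1 to 4. *Srsf10-kd* 3 was by far the highest, and *Ctrl* 3 lay above *Srsf10-kd* 1 and 2. The log2 fold change of 0.35 was the highest of the 40 genes (95% interval -0.03 to 0.72, edgeR adjusted p = 0.254) and became 0.16 without *Srsf10-kd* 3. Gm45507 overlaps 22.3% of its exon bases. *Bnip3l* was at 85.2 ± 6.49 and 85.0 ± 5.06 CPM (SD, n = 4 each), and *Fundc1* at 8.61 to 12.6 and 7.13 to 11.8 CPM.

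**Figure D3:**
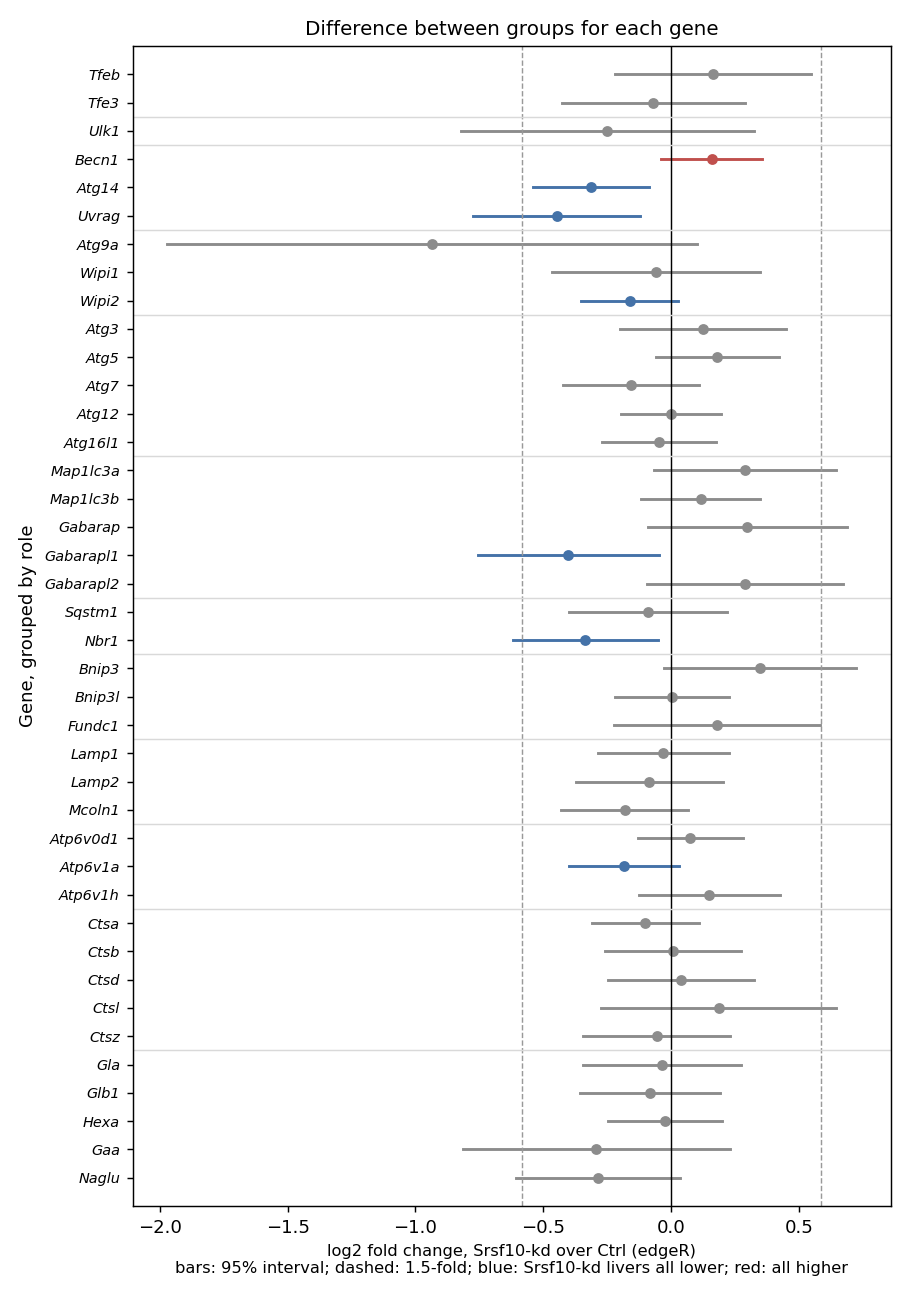
Points give the log2 fold change of each gene, *Srsf10-kd* over *Ctrl*, and bars its 95% interval from edgeR; dashed lines mark 1.5-fold, and blue and red mark the genes whose *Srsf10-kd* livers were all lower (6) or higher (1). Only *Atg14*, *Uvrag*, *Gabarapl1* and *Nbr1* have intervals that leave out 0, before adjustment for the number of genes.

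LAMP1 and LAMP2 line the lysosomal membrane, and MCOLN1 is the calcium channel of that membrane. *Lamp1* was at 592 to 697 CPM in the *Srsf10-kd* livers and at 565 to 686 CPM in the *Ctrl* livers, and *Lamp2* at 790 to 899 and 759 to 1050 CPM (log2 fold changes -0.03 and -0.085). *Mcoln1* was at 23.1, 24.1, 26.3 and 22.7 CPM in *Srsf10-kd* 1 to 4 and at 28.8, 26.2, 23.3 and 30.8 CPM in *Ctrl* 1 to 4. Its log2 fold change was -0.18 (95% interval -0.43 to 0.07, edgeR adjusted p = 0.343), with *Ctrl* 3 among the *Srsf10-kd* values, and -0.12 without *Ctrl* 4.

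The V-ATPase pumps protons into the lysosome. *Atp6v1a*, its catalytic subunit, was at 60.1, 61.4, 59.1 and 57.7 CPM in *Srsf10-kd* 1 to 4 and at 65.1, 66.8, 76.2 and 62.4 CPM in *Ctrl* 1 to 4. The groups came close but did not overlap (log2 fold change -0.18, 95% interval -0.40 to 0.03, edgeR adjusted p = 0.281). *Atp6v1h* and *Atp6v0d1*, a regulatory and a membrane-side subunit, had values of 0.15 and 0.075 with overlapping groups.

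The 5 genes for cathepsins A, B, D, L and Z had log2 fold changes from -0.10 (*Ctsa*, also known as protective protein) to 0.19 (*Ctsl*), none with an unadjusted p under 0.05. *Ctsl* was at 539, 481, 575 and 526 CPM in *Srsf10-kd* 1 to 4 and at 404, 353, 403 and 704 CPM in *Ctrl* 1 to 4. *Ctrl* 1 to 3 were below all *Srsf10-kd* livers and *Ctrl* 4 was above them all, so the difference turns on that liver (0.19 with it, 0.45 without it, and 0.07 without *Ctrl* 2, edgeR adjusted p = 0.589 with all livers). *Ctsb* was at 458 ± 52.9 and 455 ± 33.6 CPM and *Ctsd* at 365 ± 49.4 and 355 ± 35.4 CPM (SD, n = 4 each), differences well inside the spread between livers. Gm49369 shares 31.3% of the 75-base stretches of *Ctsd* transcripts, and 26.9% of the exon bases of *Ctsl* overlap other genes.

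The glycosidases α-galactosidase (*Gla*), β-galactosidase (*Glb1*), hexosaminidase A (*Hexa*), acid α-glucosidase (*Gaa*) and N-acetylglucosaminidase (*Naglu*) all had log2 fold changes below 0, from -0.29 to -0.02, and all overlapped. *Gaa*, which degrades glycogen in the lysosome, was at 89.5, 82.2, 54.6 and 89.5 CPM in *Srsf10-kd* 1 to 4 and at 103, 94.0, 59.9 and 131 CPM in *Ctrl* 1 to 4. Both livers numbered 3 were low, and the log2 fold change was -0.29 (95% interval -0.82 to 0.23, edgeR adjusted p = 0.454). It was -0.15 without *Srsf10-kd* 3, -0.47 without *Ctrl* 3 and -0.12 without *Ctrl* 4. *Naglu* was at 11.6 to 19.0 and at 17.3 to 19.9 CPM (log2 fold change -0.28, edgeR adjusted p = 0.267), and its log2 fold change was -0.17 without *Srsf10-kd* 3.

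Lysosomal hydrolases are also abundant in macrophages, and in whole liver fewer cells of a type and less RNA per cell cannot be told apart. The 11 macrophage and Kupffer cell markers summed to 235 to 440 CPM in the *Srsf10-kd* livers and 284 to 420 CPM in the *Ctrl* livers, with none of them at 0 and 0 of 11 at an unadjusted p under 0.05. The 6 markers of lipid-associated macrophages summed to 55.5 to 73.5 CPM and 41.4 to 49.3 CPM without overlap, and those of cholangiocytes, also 6, to 46.9 to 69.2 CPM and 31.8 to 39.3 CPM without overlap; *Spp1* is in both lists. Without it the lipid-associated macrophage sums overlapped, at 27.5 to 36.7 CPM and 22.7 to 29.6 CPM, and among those markers *Gpnmb* (-0.20) and *Itgax* (-0.47) had log2 fold changes below 0. The cholangiocyte sums without it were 19 to 24.5 CPM and 12.7 to 17.6 CPM. The part of these cells in the values above was not tested.

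Over all genes, longer transcripts had lower log2 fold changes, and the 40 genes followed this. Across the 40 genes the Spearman correlation of log2 fold change with transcript length was -0.50 (Pearson -0.48 on log2 length), beside -0.53 across 15429 genes that share the same libraries. The 9 genes under 2 kb had a median of 0.18, the 21 genes of 2 to 4 kb -0.06 and the 10 genes of 4 kb or more -0.17, and over all genes these medians were 0.26, -0.008 and -0.215. *Gabarap*, *Gabarapl2*, *Map1lc3a* and *Bnip3* have short transcripts and *Ulk1*, *Uvrag*, *Nbr1* and *Wipi2* long ones, while *Gabarapl1*, at 1820 bases, lay on the other side from genes of its length.

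With each library's trend on length removed, *Gabarapl1* was at -0.52 (edgeR adjusted p = 0.243), *Atg14* at -0.23, *Uvrag* at -0.27 and *Nbr1* at -0.18. *Becn1* was at 0.30 (edgeR adjusted p = 0.218), *Wipi2* moved from -0.16 to 0.02, and *Map1lc3a* from 0.29 to 0.01. The correction took the longest coding transcript of each gene, 4365 bases for *Becn1*, whether or not these livers use it. In that fit 5 of the 40 genes had an unadjusted p under 0.05 (*Becn1* higher; *Atg14*, *Uvrag*, *Gabarapl1* and *Mcoln1* lower), beside 14.9% of all genes, and 0 were called.

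The rest of the pathway was examined in 7 further lists with 161 tested genes in all. None was called by edgeR, and 34 (21.1%) had an unadjusted p under 0.05, a share near the 21.8% of all genes. Of these 7 had higher and 27 lower means in the *Srsf10-kd* livers, where all genes had 11.2% higher and 10.6% lower. Their median log2 fold change was -0.07. DESeq2 called 7 of the 161, all lower (5.27% of all genes, in either direction), and limma-voom 22 (11.7% of all genes), neither far from the share over all genes.

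Nutrient sensing, 34 genes tested, had 1 higher and 8 lower at an unadjusted p under 0.05 (26.5%, beside 21.8% of all genes). *Prkaa2*, the α2 catalytic subunit of the energy sensor AMPK, which activates ULK1, was at 48.8, 52.6, 48.2 and 51.1 CPM in *Srsf10-kd* 1 to 4 and at 69.4, 68.9, 60.6 and 69.1 CPM in *Ctrl* 1 to 4. The groups were well apart (log2 fold change -0.42, edgeR adjusted p = 0.113, DESeq2 adjusted p = 0.00182), although with the trend on length removed the value was -0.13. *Tsc1*, a brake on mTORC1, was at 14.9 ± 1.04 and 23.5 ± 5.09 CPM (SD, n = 4 each; -0.65, edgeR adjusted p = 0.116, DESeq2 adjusted p = 0.0133), and its log2 fold change was -0.36 with that trend removed. *Sesn3*, a sestrin that restrains mTORC1, was at 1.77 ± 0.477 and 3.92 ± 0.912 CPM (SD, n = 4 each; -1.15, edgeR adjusted p = 0.0993, DESeq2 adjusted p = 0.00105), and at -0.83 with that trend removed. *Lamtor2*, part of the Ragulator scaffold that holds mTORC1 at the lysosome, was at 57.5, 57.5, 102 and 59.5 CPM against 47.3, 46.3, 54.4 and 38.8 CPM (0.565, edgeR adjusted p = 0.167) and at 0.19 with the trend on length removed.

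Of 25 other genes of autophagosome formation, 0 were higher and 6 lower at an unadjusted p under 0.05 (24%, beside 21.8% of all genes). *Zfyve1*, which encodes DFCP1, a marker of the sites where autophagosomes form, was at 46.6, 49.6, 46.8 and 52.2 CPM in *Srsf10-kd* 1 to 4 and at 77.4, 72.7, 71.8 and 59.0 CPM in *Ctrl* 1 to 4. It did not overlap between groups (log2 fold change -0.525, edgeR adjusted p = 0.0993, DESeq2 adjusted p = 0.00158) and was at -0.39 with the trend on length removed. *Atg13* and *Rb1cc1*, partners of ULK1, were at -0.34 and -0.32 (edgeR adjusted p = 0.166 and 0.169), and at -0.26 and -0.06 with that trend removed.

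Among 18 further receptor and mitophagy genes, 2 were higher and 5 lower at an unadjusted p under 0.05 (38.9%, beside 21.8% of all genes). *Sec62* and *Ccpg1*, receptors for autophagy of the endoplasmic reticulum, were higher in every *Srsf10-kd* liver, *Sec62* at 225 to 408 against 178 to 199 CPM and *Ccpg1* at 8.07 to 16.2 against 6.56 to 7.59 CPM (edgeR adjusted p = 0.151 and 0.142). *Ncoa4*, the receptor that brings ferritin to the lysosome, was at 50.2, 50.4, 21.8 and 48.4 CPM against 70.9, 68.0, 66.4 and 80.6 CPM, lower in every *Srsf10-kd* liver and lowest in *Srsf10-kd* 3 (log2 fold change -0.74, edgeR adjusted p = 0.150). The log2 fold change of *Bcl2l13*, a mitophagy receptor, was -0.445 and that of *Wdfy3*, which encodes the aggregate adaptor ALFY, -0.68 (edgeR adjusted p = 0.173 and 0.195), the latter with *Ctrl* 3 below all *Srsf10-kd* livers. With the trend on length removed they were at -0.20 and -0.22.

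Fusion with the lysosome, 17 genes, had *Vamp8*, a SNARE, higher (0.43), and *Vps33a* and *Vps39* of the HOPS tether and the tether *Epg5* lower (-0.38, -0.345 and -0.75) at an unadjusted p under 0.05, of which *Vps33a* did not overlap between groups. That was 4 of 17 genes (23.5%), beside 21.8% of all genes. With the trend on length removed *Vamp8* was at 0.33, *Vps33a* at -0.26, *Vps39* at -0.21 and *Epg5* at -0.39. Among 13 other proton pump subunits *Atp6v0a2* was at 30.5, 33.5, 25.6 and 30.3 CPM in *Srsf10-kd* 1 to 4 and at 44.3, 44.8, 39.3 and 45.4 CPM in *Ctrl* 1 to 4 (log2 fold change -0.535, edgeR adjusted p = 0.0948, DESeq2 adjusted p = 0.00207), and *Atp6v1g1* had a log2 fold change of 0.49. The log2 fold change of *Atp6v0a2* was -0.34 and that of *Atp6v1g1* 0.21 with the trend on length removed. Of these 13 subunits 2 had an unadjusted p under 0.05 (15.4%, beside 21.8% of all genes).

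Of 34 further enzymes 0 had groups that did not overlap, beside 14.3% of all genes. *Ctsc*, which encodes cathepsin C, had a log2 fold change of 0.34 (edgeR adjusted p = 0.194). Of 20 membrane, activator and sorting proteins 1 was higher and 3 were lower at an unadjusted p under 0.05. That was 20%, beside 21.8% of all genes. *Npc2* was at 58.6 to 81.6 and 47.8 to 56.0 CPM and *Npc1* at 55.8 to 98.5 and 89.3 to 190 CPM (0.35 and -0.62), the soluble and the membrane protein that together move cholesterol out of the lysosome. *Scarb2*, which carries β-glucocerebrosidase to the lysosome, was at 213 to 230 and 244 to 274 CPM without overlap (-0.23, edgeR adjusted p = 0.201, DESeq2 adjusted p = 0.0479), and *Igf2r*, which sorts hydrolases, was at -0.65. With the trend on length removed these values were -0.08 and -0.32.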

How the data were processed

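Paired-end sequencing of poly(A) RNA was done on 8 mouse livers, 4 per group, with groups and numbers taken from the sample titles. The authors deposited raw counts per gene, made with STAR 2.7.7a on GRCm38 according to the submitters' processing notes. The annotation release and the strand column are not given in the sources used here. No 2 columns held the same library (chi-square per degree of freedom of 51 or more in 28 pairs). Nothing in the labels names a batch, and p-values set the difference between groups against the spread between these livers.

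The counts were tested in R 4.3.3 with edgeR 4.0.16 (TMM, filterByExpr, quasi-likelihood test on condition alone, two-sided, Benjamini-Hochberg over 15491 genes), with log2 CPM at a prior count of 2. DESeq2 1.42.0, the tool of the study, and limma-voom (limma 3.58.1) were alternatives, with other scalings and filters, a replicate block, a lowess trend on transcript length (span 0.5) removed from each library, and each liver left out. Leaving out both livers numbered 3 was added after seeing the data. Permutation tests used all 70 assignments of livers. Their p is 0.0286 for any gene whose groups do not overlap, and so restates that the groups are apart. Intervals are 95%. Scripts were tested on simulated counts with 200 genes changed by 1.5 on the log2 scale. At an adjusted p under 0.05, edgeR recovered 171 with 7 false calls, DESeq2 176 with 33 and limma-voom 172 with 5. Positions, overlaps and the length of the longest coding transcript are from GENCODE M21, which holds 45143 of the identifiers.

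The members and lists were chosen with earlier results of these data known. Values in every liver are given for members with an unadjusted p under 0.05 or groups that do not overlap and for the largest change of each role, and values of the other lists for up to 3 genes per direction with the smallest such p. *Tmem55b* did not match and *Rragb* did not pass the filter. A gene of the other lists that this rule names is not reported here.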

Additional observations from a re-analysis of the deposited data

Results flagged for a closer look

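Each of the 40 genes was examined in both groups for a liver far from the other 3 of its group, which makes 80 groups. In 9 of them 1 liver's gap to its nearest neighbour was above Dixon's 95% critical share of the group's range, where about 4 are what chance gives at 1 in 20. *Srsf10-kd* 3 had 16.2 CPM of *Atg14* against 19.5 to 19.6 CPM in the rest of its group, and 22.7 CPM of *Wipi1* against 13.6 to 14.5 CPM. *Ctrl* 3 had 13.6 CPM of *Atg9a* against 24.5 to 27.5 CPM, 231 CPM of *Gabarap* against 175 to 180 CPM, 308.7 CPM of *Bnip3* against 269 to 273 CPM, and 408 CPM of *Ctsd* against 334 to 341 CPM. *Ctrl* 4 had 125 CPM of *Map1lc3b* against 110 to 112 CPM. *Ctsz*, which encodes cathepsin Z, was low in *Srsf10-kd* 2 (153.9 CPM against 189.5 to 194 CPM) and in *Ctrl* 2 (154.8 CPM against 200 to 203 CPM). The number 3 livers account for 6 of the 9; the slope of log2 CPM on log2 transcript length was -0.19 in *Srsf10-kd* 3 and -0.03 in *Ctrl* 3, against -0.07 to -0.02 and 0.09 to 0.14 in the rest of each group, and its part in these values was not tested.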

How the results depend on the processing

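The count of the 40 genes called was 0 in the comparison as designed and in every alternative except limma-voom (2, *Atg14* and *Uvrag*) and the fit without both livers numbered 3, added after the data were seen (2, *Atg9a* and *Wipi1*). Over all genes the count was 11, and it was 824 with DESeq2, 1814 with limma-voom, 46 without a filter, 59 with the replicate block, 0 with the replicate block and the length correction, 1342 without both livers numbered 3, and from 0 to 544 with 1 liver left out (0 without *Srsf10-kd* 1, 2 or 4 or *Ctrl* 2, 544 without *Ctrl* 3). In the fits with 0 genes, 2154 to 3656 had an unadjusted p under 0.05, and 2627 with the block and length correction. The 4 genes of the 40 at an unadjusted p under 0.05 stood beside 21.8% of all genes. With limma-voom there were 12 of the 40 (31.4% of all genes), and with the replicate block 9 (28%). There were 7 with the block and length correction (17%) and 12 without both livers numbered 3 (28.2%). With 1 liver left out there were 3 to 8 (8 without *Ctrl* 3 or *Srsf10-kd* 2), beside 13.8% to 28% of all genes. The 34 of the other pathway lists at that p became 52 with limma-voom (31.4% of all genes) and 20 with the length correction (14.9%). They became 16 to 46 with 1 liver left out (16 without *Ctrl* 4, 17 without *Ctrl* 2, 20 without *Ctrl* 1 or *Srsf10-kd* 3). The median log2 fold change of the 40 genes was -0.041 and lay between -0.053 and 0.004 when single livers were dropped, the latter without *Ctrl* 3. The cause was not tested. Same-numbered livers deviated from their group means with correlations of -0.18, 0.21, 0.27 and 0.22. Differently numbered livers had correlations from -0.34 to 0.38, a range that holds all of these. The numbers were not taken as pairs in the comparison as designed. Depth was 50456404 reads or more per liver; how much of the spread between livers is counting error was not tested.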
